A study of Mus musculus with 6 samples.

Results

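Chromatin accessibility was described at 10 genes of the Notch pathway: the receptors Notch1, Notch2 and Notch3, the ligands Dll1, Dll4 and Jag1, the receptor-modifying enzyme Lfng, the DNA-binding partner Rbpj and the target genes Hes1 and Hes5. They are 10 of 21938 protein-coding genes in the annotation (GENCODE M21, mouse build GRCm38) and were chosen by name. A peak belonged to a gene if its summit, the base with the most overlapping fragments, lay in the gene body or up to 20 kb to either side. When the 6 peak lists were merged wherever peaks overlapped, 74 of 71286 merged peaks met this rule. The measurements came from ATAC-seq, in which a transposase cuts and tags open chromatin, on crypts of the mouse intestine, where the stem cells and dividing progenitors of the epithelium lie. Of the 6 samples, 3 were labelled Arid3a WT and 3 Arid3a KO, called WT and cKO here. Arid3a encodes a transcription factor that binds A+T-rich DNA, and in the study's model its floxed alleles were deleted by VillinCre-ERT2, a tamoxifen-activated Cre driven by the Villin promoter and therefore limited to the intestinal epithelium. Both groups were given tamoxifen on 3 consecutive days and collected 1 month after the first dose. The age of the animals, whether the WT animals carried floxed alleles or Cre, and whether each sample was 1 animal were not given in the sources used here, so any p-value measures the spread between these samples. The comparison asked whether the loss of Arid3a altered accessibility at these genes.

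Notch signalling passes between cells in contact. Delta and Jagged ligands on one cell bind Notch receptors on its neighbour, the receptor is cleaved, and its intracellular part enters the nucleus and joins RBPJ on DNA to switch on targets such as Hes genes. In the intestinal crypt the pathway keeps stem cells undifferentiated and directs progenitors to the absorptive lineage, since HES1 represses Atoh1, the factor that starts the secretory lineage.

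RBPJ recognises the core TGGGAA, so the promoters of the 10 genes were searched for it on both strands. In the 250 bases before the annotated start, 3 of the 9 genes present in the RefSeq promoter table (build GRCm38.p6) held 2 matches each. They were Hes5, Lfng and Rbpj itself, and they are printed here 5′ to 3′ with each match in capitals (TTCCCA is the core on the opposite strand) because they carry the sequence read by the pathway's own factor.
Hes5 promoter, chr4:154960673-154960922, plus strand: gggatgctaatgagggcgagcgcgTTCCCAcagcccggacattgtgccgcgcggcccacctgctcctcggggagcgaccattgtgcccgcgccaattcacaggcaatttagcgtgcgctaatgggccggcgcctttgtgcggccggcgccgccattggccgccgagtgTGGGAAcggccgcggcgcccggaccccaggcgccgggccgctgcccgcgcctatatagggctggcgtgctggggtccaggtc
Lfng promoter, chr5:140607091-140607340, plus strand: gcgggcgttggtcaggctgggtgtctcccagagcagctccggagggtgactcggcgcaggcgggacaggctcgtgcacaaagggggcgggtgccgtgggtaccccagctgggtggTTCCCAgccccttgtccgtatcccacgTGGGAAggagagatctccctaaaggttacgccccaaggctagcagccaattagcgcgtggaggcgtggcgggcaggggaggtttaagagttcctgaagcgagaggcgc
Rbpj promoter, chr5:53590096-53590345, plus strand: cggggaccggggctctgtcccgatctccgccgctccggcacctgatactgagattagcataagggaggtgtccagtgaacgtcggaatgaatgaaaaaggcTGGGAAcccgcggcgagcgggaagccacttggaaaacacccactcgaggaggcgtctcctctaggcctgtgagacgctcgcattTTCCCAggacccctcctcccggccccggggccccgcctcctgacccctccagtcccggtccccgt
In the Hes5 promoter the matches began 226 and 82 bases before the start and pointed in opposite directions. In Lfng they began 135 and 108 bases before the start, and in Rbpj 149 and 65 bases. Over all 32851 promoters of this table, 21.6% held at least 1 match and 2.77% held 2 or more. These shares count promoter windows, whereas the matches above were counted by gene. Dll1 and Rbpj had a further window each, and that of Rbpj held 1 match. No match was in the windows of Dll1, Dll4, Jag1, Notch1, Notch2 or Notch3. Hes1 was not in the table. A match is a description of letters and not a bound site.

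Each list gives for every peak a fold, the ratio of the fragments piled up at the summit to the local background. For comparison between samples each peak was given its percentile by fold within its own list, from 0 for the weakest to 100 for the strongest. The pileup itself was recovered from the deposited fold and p as a whole number of fragments for 100% of peaks, and was ranked in the same way after the values by fold had been seen. The lists held 40492 to 58297 peaks, with a median pileup of 28 to 44 fragments. As a check of the tissue, each of the 6 epithelial marker genes had a promoter peak in at least 3 lists and each of the 6 crypt stem and progenitor markers in at least 2. The 6 lymphocyte and leukocyte markers had a promoter peak in 0 lists. Of 6 mesenchymal markers Col1a1 and Pdgfra had one in all 6 lists, Des had one in 3 lists and 3 markers had none. Of 6 endothelial markers Vwf had one in 5 lists, Kdr had one in 2 lists and 4 markers had none.

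No peak of the Notch pathway genes passed the test of the genotypes across all peaks. None of the 50 peaks of these genes that were called in all 6 lists passed limma on the normal scores of the ranks at an adjusted p of 0.05, with 0 of 32748 shared peaks passing over the genome (0%). At an unadjusted p under 0.05 there were 2 of the 50 (4%) and 1894 of all shared peaks (5.78%). The adjusted p of the 50 peaks ran from 0.773 to 0.995. This does not show that the genotypes were alike. In whole crypts, fewer cells of a type with an open site and less opening per cell cannot be told apart.

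Among the receptors, the Notch2 promoter had the highest percentile of the 10 genes. Its peak, with the summit 153 bp after an annotated start (chr3:98013122-98014363, in an untranslated region), stood at percentiles of 90.4, 91.1 and 92.8 in WT 1, 2 and 3 and at 91.7, 91.6 and 94.1 in cKO 1, 2 and 3. The ranges overlapped, and all 6 values lay within 4 points. Notch1, the main receptor of crypt stem cells together with Notch2, had its promoter peak (chr2:26500786-26504424, summit 5 bp after a start) at 49.4, 46.6 and 42.7 in WT and 37.9, 37.7 and 32.2 in cKO. All 3 cKO values were below the lowest WT value, a difference in normal score of -0.26 ± 0.22 (SE) with an adjusted p of 0.785. This merged peak was 3639 bp wide. A list's own summit lay in the promoter only in WT 1, WT 3 and cKO 3. In WT 2, cKO 1 and cKO 2 the percentile came from a part with its summit outside the promoter. By pileup the same Notch1 peak held 77, 122 and 149 fragments in WT and 216, 83 and 155 in cKO, percentiles of 86.6, 88.1 and 88.6 against 91.2, 83.4 and 90.6. On that scale the groups overlapped, with cKO on both sides of WT. Notch3, known mainly from vascular smooth muscle and pericytes, had no promoter peak in any of the 6 lists. The shared peaks closest to its start were in an intron 4285 bp downstream, at 73.4, 71.3 and 78.1 in WT and 77.1, 82.0 and 79.8 in cKO, and 3158 bp upstream.

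Among the ligands, the promoter of Jag1 ranked above those of Dll1 and Dll4 in every list. The Jag1 peak (chr2:137115928-137117658, summit 425 bp before the start) stood at 76.7, 79.7 and 74.2 in WT and 61.7, 78.9 and 61.8 in cKO. cKO 1 and 3 were below all WT values and cKO 2 was among them. The Dll4 peak (chr2:119324673-119326654), shared with the start of the noncoding gene Gm14207, showed the same arrangement with 56.6, 52.8 and 39.7 in WT and 26.6, 48.0 and 26.9 in cKO. The Dll1 peak (chr17:15374653-15377081) stood at 51.6, 44.1 and 56.6 in WT and 29.4, 39.9 and 29.6 in cKO, with no overlap between the groups. Its difference was -17.8 percentile points, and in normal score it was -0.46 ± 0.23 (SE) with an adjusted p of 0.773. By pileup the Dll1 peak held 59, 85 and 140 fragments in WT and 140, 64 and 114 in cKO, percentiles of 78.0, 79.5 and 87.2 against 81.9, 76.5 and 82.7, which overlapped.

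Lfng, which adds sugars to Notch receptors and so changes their response to ligands, had separate peaks at 2 of its annotated starts. The peak at the 5′ start (chr5:140606915-140608459) stood at 29.7, 40.05 and 17.5 in WT and 8.29, 34.5 and 11.1 in cKO, and the peak at a start inside the gene (chr5:140610434-140611822) at 53.7, 53.6 and 49.4 in WT and 33.0, 53.1 and 35.2 in cKO. At both peaks cKO 1 and 3 were lowest and cKO 2 lay within the WT range. The promoter printed above, with 2 RBPJ matches, lay within the first of these peaks. Rbpj, the DNA-binding factor of the pathway, had its promoter peak (chr5:53588964-53590900) at 80.7, 77.3 and 72.5 in WT and 64.95, 78.3 and 63.8 in cKO, again with cKO 1 and 3 below WT and cKO 2 among the WT values. Its pileup was the highest of the promoters of the 10 genes, at 129, 248 and 268 fragments in WT and 360, 180 and 240 in cKO, and it stood between percentiles 98.2 and 99.0 by pileup in all 6 lists. The printed Rbpj promoter lay within this peak.

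Hes1, the target gene that represses the secretory programme, was the gene with the densest peaks, with 8 shared peaks in a window of 43.4 kb. Its promoter peak (chr16:30063082-30065411, summit 299 bp before the start) stood at 46.7, 44.4 and 41.4 in WT and 22.2, 40.8 and 16.1 in cKO. All cKO values were below all WT values, though cKO 2 was within 1 point of WT 3. The difference was -0.52 ± 0.26 (SE) in normal score, with an adjusted p of 0.773. All 8 shared Hes1 peaks had a lower mean percentile in cKO, with differences of -18.1 to -1.11 points, beside 50.7% of all shared peaks, and by pileup 5 were lower and 3 higher. Peaks of 1 gene are not replicates of a genotype. The peak 5.96 kb downstream of the 5′ start stood at 57.4, 59.1 and 57.4 in WT and 39.7, 54.8 and 25.0 in cKO. By pileup the Hes1 promoter held 89, 136 and 169 fragments in WT and 218, 95 and 149 in cKO. These were percentiles of 90.8, 90.5 and 91.1 in WT and 91.4, 86.9 and 89.6 in cKO, a difference of -1.51 points with the groups overlapping. The most fragments near Hes1 were at an intergenic peak 8.43 kb upstream (chr16:30055471-30056507), with 115, 193 and 242 in WT and 331, 138 and 216 in cKO. That peak exceeded the promoter in all 6 lists, as the plot of the Hes1 peaks shows.

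**Figure D1:**
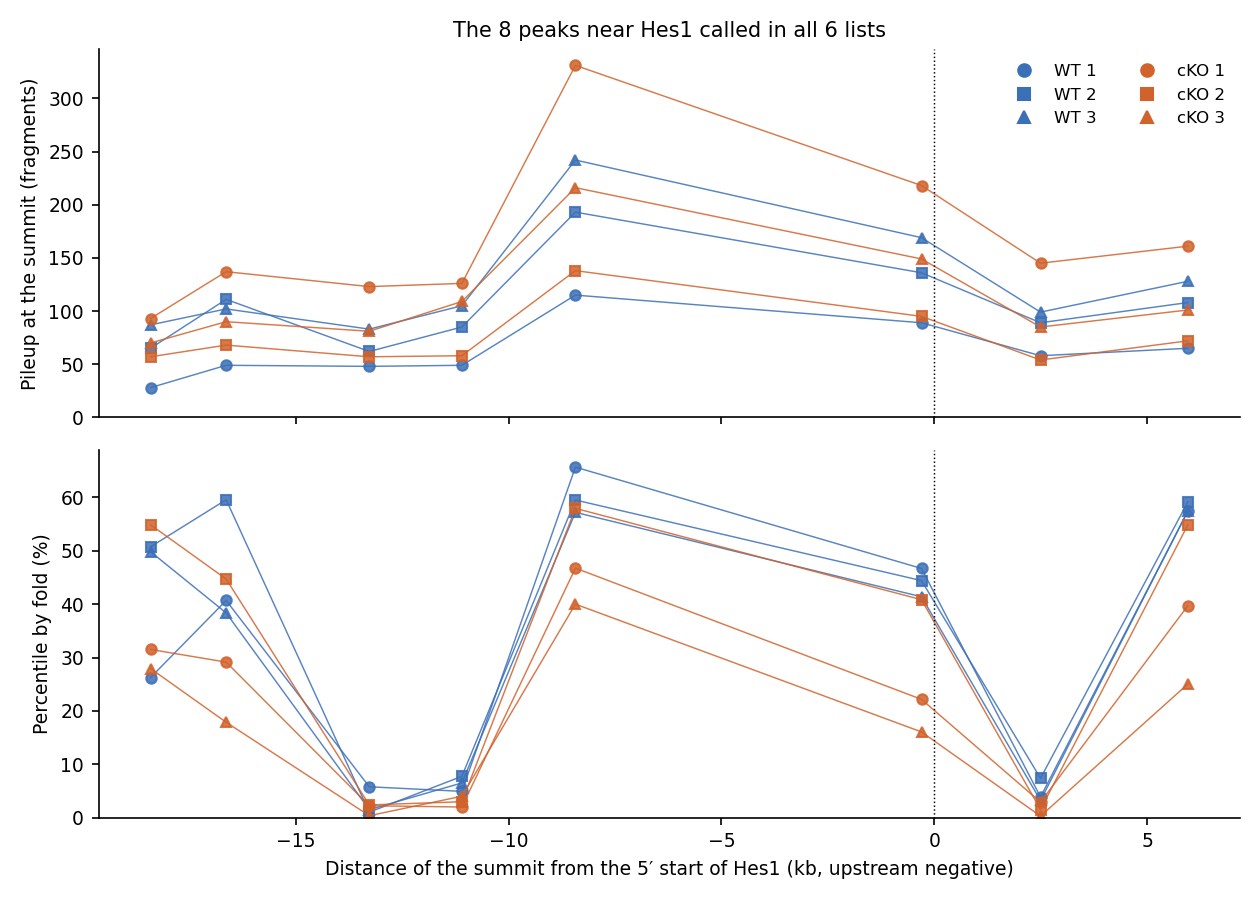
The 8 peaks near Hes1 called in all 6 lists, by distance of the summit from the 5′ start of the gene (horizontal, kb) against the pileup at the summit (upper panel, fragments) and the percentile by fold (lower panel, %), 1 line per sample. Fragments are most numerous 8.43 kb upstream in every sample, cKO 1 and 3 lie low by fold at the promoter, and by pileup the lines of WT and cKO are interleaved.

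Hes5, another Hes target, had no summit inside the promoter definition, 1000 bp before to 100 bp after a start. A peak covered its start, with the summit 158 bp after an annotated start (chr4:154960703-154962133), and was taken in after its position had been seen. It stood at 24.0, 23.4 and 16.6 in WT and 19.9, 20.8 and 18.0 in cKO, overlapping groups with a difference of -1.77 points. Its pileup of 44 to 125 fragments placed it between percentiles 68.2 and 79.3 by pileup. The printed Hes5 promoter overlapped this peak, but its first RBPJ match, 226 to 221 bases before the start, lay just outside it.

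Averaged over the 6 lists, the percentile by fold ordered the start-site peaks as Notch2 (91.9 ± 1.31, SD over lists), Rbpj (72.9 ± 7.16), Jag1 (72.2 ± 8.30), the inner Lfng start (46.3 ± 9.61), Dll1, Dll4, Notch1, Hes1, the 5′ Lfng start and Hes5 (20.5 ± 2.92). Notch2 exceeded Rbpj in 6 of 6 lists, Jag1 exceeded the inner Lfng start in 6 of 6 and Hes1 exceeded the 5′ Lfng start in 6 of 6. Rbpj against Jag1, Dll1 against Dll4 and Dll4 against Notch1 were each split 3 lists to 3 and could not be ordered. By pileup the order was Rbpj (98.5 ± 0.346), Jag1 (97.4 ± 0.690), inner Lfng (90.6 ± 1.73), Hes1 (90.0 ± 1.66), Notch2 (89.0 ± 2.76), Notch1, Dll4, 5′ Lfng, Dll1 and Hes5 (74.2 ± 3.85). Notch2 thus led by fold and not by pileup, and Hes1 stood below Dll1, Dll4 and Notch1 by fold and above them by pileup. The inner Lfng start against Hes1 and Hes1 against Notch2 were split 3 to 3 by pileup.

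**Figure D2:**
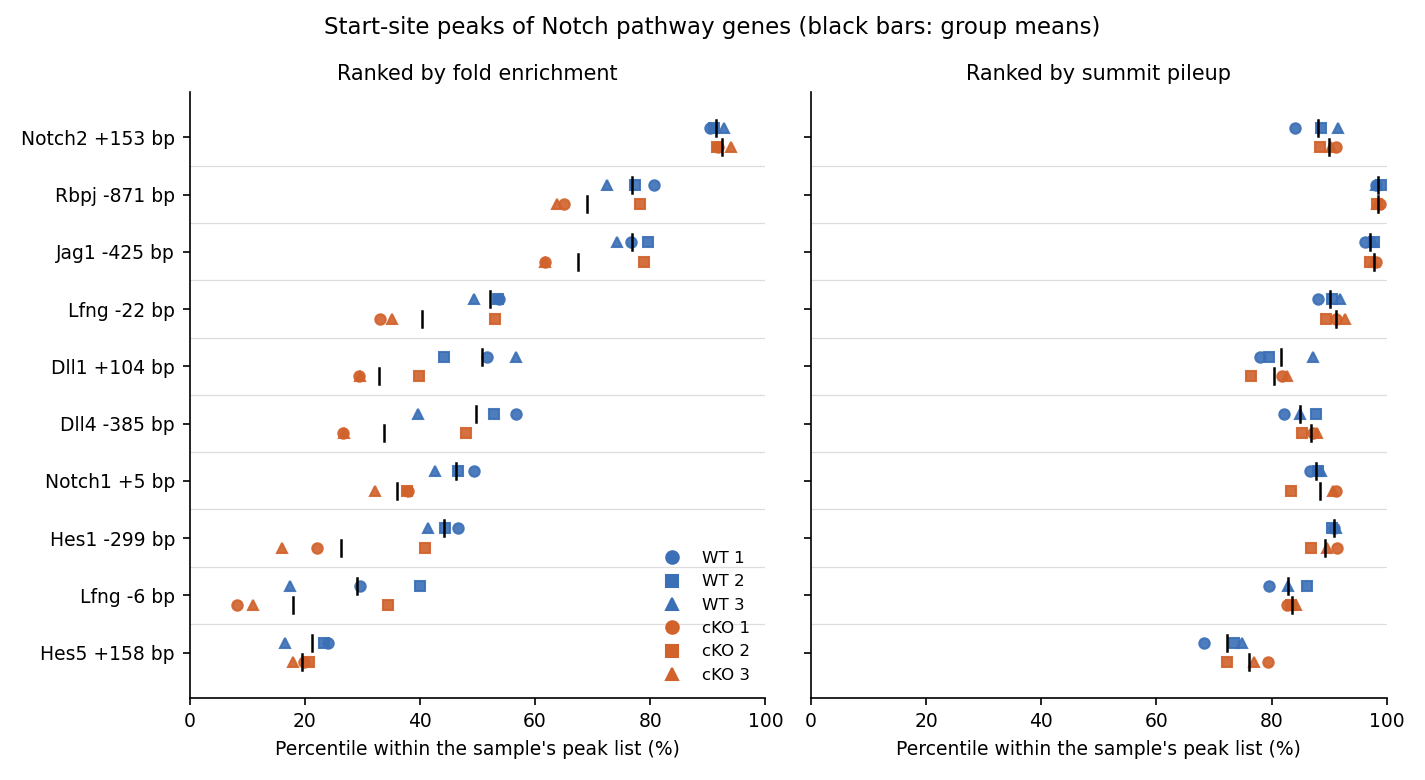
Percentile of the 10 start-site peaks of the Notch pathway genes within each sample's list (horizontal, %), ranked by fold (left) and by summit pileup (right). Symbols are samples, black bars are group means, and labels give the distance of the summit from the nearest start. By fold most peaks of cKO 1 and 3 lie left of WT, and by pileup the groups overlap at every peak, between 68.2 and 99.0.

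The lower fold in cKO was shared by most promoters of the 10 genes, and their pileup showed no such shift. The mean percentile by fold was lower in cKO at 8 of the 9 shared promoter peaks, all but Notch2, with a median difference of -11.1 points, beside a median of -1.17 and 60.2% lower over all 13383 shared promoter peaks. All shared promoter peaks stood higher, at median percentiles of 79.1, 82.0 and 83.0 in WT, so the points are not on a like scale. In normal score the median differences were -0.303 and -0.0698. At 3 of the 9 (Dll1, Hes1 and Notch1) every cKO value was below every WT value, against 8.88% of all shared promoter peaks, and at 0 every cKO value was above, against 3.37%. The Notch1 values include lists whose own summit lay outside the promoter. The median percentile of the 9 peaks was 53.7, 52.8 and 49.4 in WT and 33.0, 48.0 and 32.2 in cKO, so that cKO 2 stayed near WT. Without cKO 2 the count of shared peaks of these genes lower in every cKO list rose from 9 of 50 to 20 of 51, as it did over all shared peaks from 7.04% to 20.9%. The count higher in every cKO list rose from 0 of 50 to 5 of 51, and over all shared peaks from 4.66% to 17.3%. Ranked by pileup, the mean was lower in cKO at 2 of the 9 promoters, the median difference was 0.631 points and 0 of 9 had groups without overlap, against 1.85% of all shared promoter peaks lower and 5.75% higher in cKO. Ranked by pileup, 0 of the 50 peaks passed the rank test, with adjusted p of at least 0.9996. Fold is the ratio of pileup to local background, so fold and background are not independent. The local background was highest in cKO 1 and 3, the samples of lowest fold percentile, though not in the same order. Its median at the 9 promoters was 13.8, 19.8 and 26.6 fragments in WT and 43.4, 15.7 and 32.1 in cKO, highest in cKO 1 and 3. The median pileup at these promoters was 77, 125 and 169 fragments in WT and 216, 95 and 153 in cKO. Neither count is scaled for depth. The median background over all peaks of a list was 4.47, 4.24 and 4.84 in WT and 6.18, 3.99 and 5.67 in cKO. The part of the background in the lower fold was not tested. A lower mean percentile by fold was also found at promoters of epithelial marker genes. Crypt markers lay nearer the median of all shared promoter peaks. At 6 of 6 epithelial markers the mean was lower in cKO, with a median difference of -8.67 points. Over all shared promoter peaks 60.2% were lower, with a median of -1.17. At Krt19 and Epcam the groups did not overlap, beside the 8.88% of all shared promoter peaks. At crypt stem and progenitor markers the mean was lower at 5 of 6, all but Lgr5. Their median of -2.23 points was close to the -1.17 of all shared promoter peaks. At Axin2 the groups did not overlap. By pileup 3 of 6 epithelial and 2 of 6 crypt markers were lower in cKO. Mesenchymal and endothelial markers had 2 shared peaks each. In each set 1 of 2 was lower by fold, with median differences of 0.639 and 10.7 points.

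**Figure D3:**
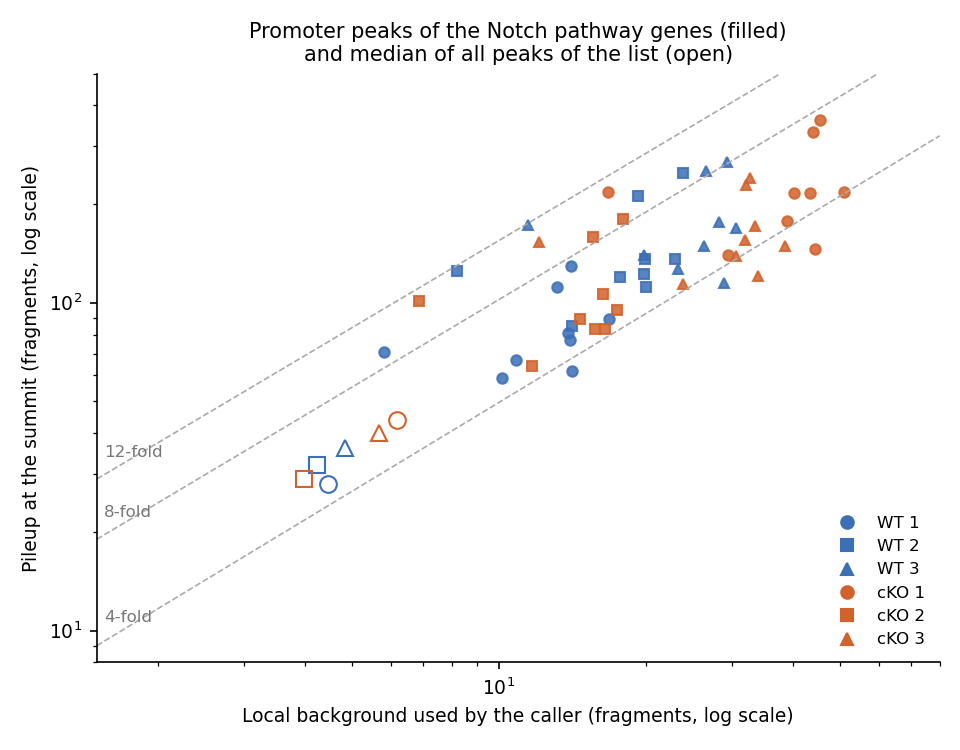
Summit pileup (vertical, fragments) against the local background used by the caller (horizontal, fragments) for the 9 shared promoter peaks of the Notch pathway genes (filled) and the median of all peaks of each list (open), both axes logarithmic. Dashed lines mark equal fold. The promoters have more fragments and more background than the median peak, and most promoters of cKO 1 lie furthest right.

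**Figure D4:**
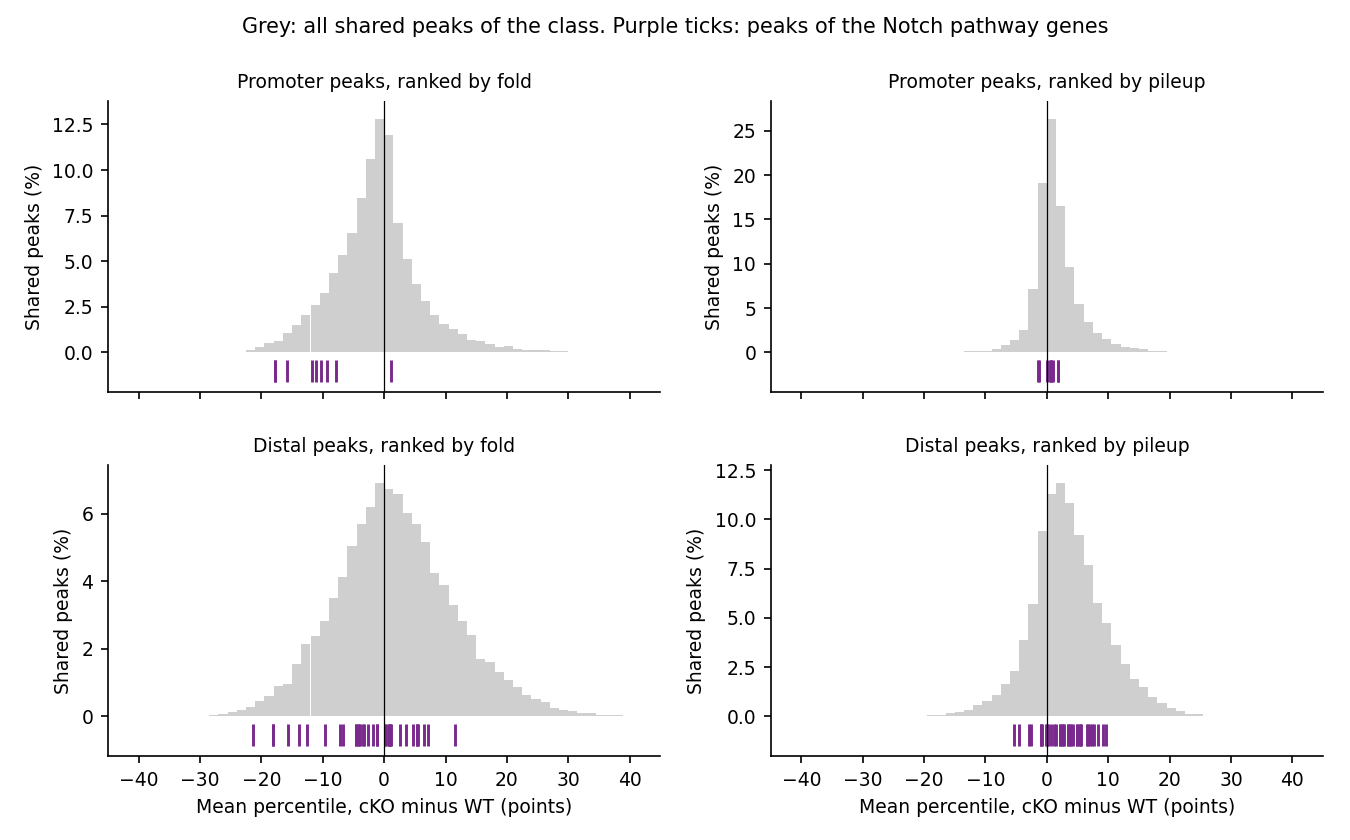
Difference in mean percentile, cKO minus WT (horizontal, points), for all shared promoter and distal peaks (grey bars, % of the class) and for the peaks of the Notch pathway genes (purple ticks), ranked by fold (left) and by pileup (right). By fold the promoter ticks lie from -17.8 to 1.06, and by pileup from -1.51 to 1.85.

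Distal peaks, whose summits were outside any promoter, made up 59 of the 74 merged peaks. By this rule the Hes5 peak that covers its start counted as distal, here and in the motif shares. Of the distal peaks, 36 were called in all 6 lists. Their mean percentile by fold was lower in cKO at 20 of 36, with a median difference of -1.46 points, beside 44.1% lower and a median of 1.31 over all 19365 shared distal peaks. At 6 of the 36 every cKO value was below every WT value, against 5.76% of shared distal peaks, and at 0 above, against 5.55%. These 6 were 3 Hes1 peaks (11.1 kb upstream, 2.50 kb and 5.96 kb downstream of the 5′ start) and 1 each of Jag1, Notch2 and Notch3. By pileup 0 of the 36 were lower in every cKO list, against 1.09%, and 2 were higher, against 6.91%. The 2 higher peaks were in introns, the Notch3 peak 4285 bp downstream of the start, at 82.2, 82.9 and 85.2 in WT and 89.9, 86.4 and 88.7 in cKO, and the Notch2 peak 17.7 kb downstream, and were named after their values had been seen. Of the 5 shared peaks at promoters of other genes in these windows, 1 was lower by pileup in every cKO list. The share over all shared promoter peaks was 1.85%. This peak, at the shared start of Sec16a and 0610009E02Rik next to Notch1, stood at 99.52, 99.09 and 99.11 in WT and 99.00, 98.45 and 98.97 in cKO. The difference was -0.428 points, near the top of the scale, and by fold its groups overlapped.

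The peaks that reached an unadjusted p under 0.05 were both intronic and both lower by fold in cKO. The Jag1 peak 1867 bp inside the gene (chr2:137114284-137115822) stood at 36.3, 21.7 and 32.9 in WT and 14.5, 10.5 and 11.3 in cKO, a difference of -0.65 ± 0.26 (SE) in normal score with an adjusted p of 0.773. The groups were apart by more than 7 points. By pileup it held 63, 86 and 132 fragments in WT and 165, 59 and 116 in cKO, and these overlapped. The Notch2 peak 30.5 kb inside the gene (chr3:98043385-98046642) stood at 41.2, 60.2 and 58.9 in WT and 34.3, 36.4 and 25.3 in cKO, a difference of -0.56 ± 0.24 (SE) with an adjusted p of 0.773. WT 1 was within 5 points of cKO 2. Its pileup percentiles were 56.8, 66.4 and 70.4 in WT and 66.4, 54.1 and 59.7 in cKO, and the groups overlapped.

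The strongest distal peaks by fold were beside the ligand genes. An intergenic peak 12.2 kb downstream of the 5′ start of Dll4 and outside the gene (chr2:119337477-119338381) stood at 79.5, 94.6 and 94.4 in WT and 96.4, 90.4 and 96.0 in cKO, the groups overlapping. An intergenic peak 20.1 kb downstream of the 5′ start of Dll1 and outside the gene (chr17:15355839-15357639) stood at 64.6, 77.2 and 90.2 in WT and 89.2, 81.6 and 82.8 in cKO. WT 1 was the lowest sample at both. Both ranked above the promoter of their gene in all 6 lists. The leading distal peaks of Rbpj (2798 bp upstream), Notch1 and Hes1 (8.43 kb upstream) had median percentiles of 73.1, 67.2 and 57.5. The Notch1 peak was 57.952 kb downstream of the 5′ start, 4036 bp after a later start and in an untranslated region. Those of Jag1, Notch2, Hes5 and Lfng had medians of 61.8, 60.5, 50.8 and 31.8. The groups overlapped at all of these leading peaks.

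Peaks of these genes were called more regularly than most. Of the 74 merged peaks 50 (67.6%) were called in all 6 lists, beside 45.9% of all merged peaks, and 13 (17.6%) in 1 list, beside 20.9%. All 9 merged promoter peaks had a peak in all 6 lists. Where the summit of each list's own peak was required to lie in the promoter, 6 of the 10 genes had a promoter peak in all 6 lists, Notch2 in 5, Notch1 in 3, and Hes5 and Notch3 in 0. None was called in 3 of 3 cKO and 0 of 3 WT lists, against 0.464% of all merged peaks, or the reverse, against 0.111%. The nearest to such a pattern was an intergenic peak 16.8 kb upstream of a Notch1 start, called in cKO 1 and 3 with folds of 5.63 and 3.90. The share of all merged peaks with this looser pattern was not computed. The lists held 56, 64 and 68 peaks at these genes in WT and 63, 67 and 63 in cKO, or 62.7 ± 6.11 (SD, n = 3) and 64.3 ± 2.31 (SD, n = 3). Per gene the number ran from 3 to 5 for Jag1 and Rbpj to 7 to 11 for Notch1 and Notch2. At 0 of the 10 genes did every cKO list hold more peaks than every WT list, against 0.857% of protein-coding genes, or fewer, against 0.36%.

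**Figure D5:**
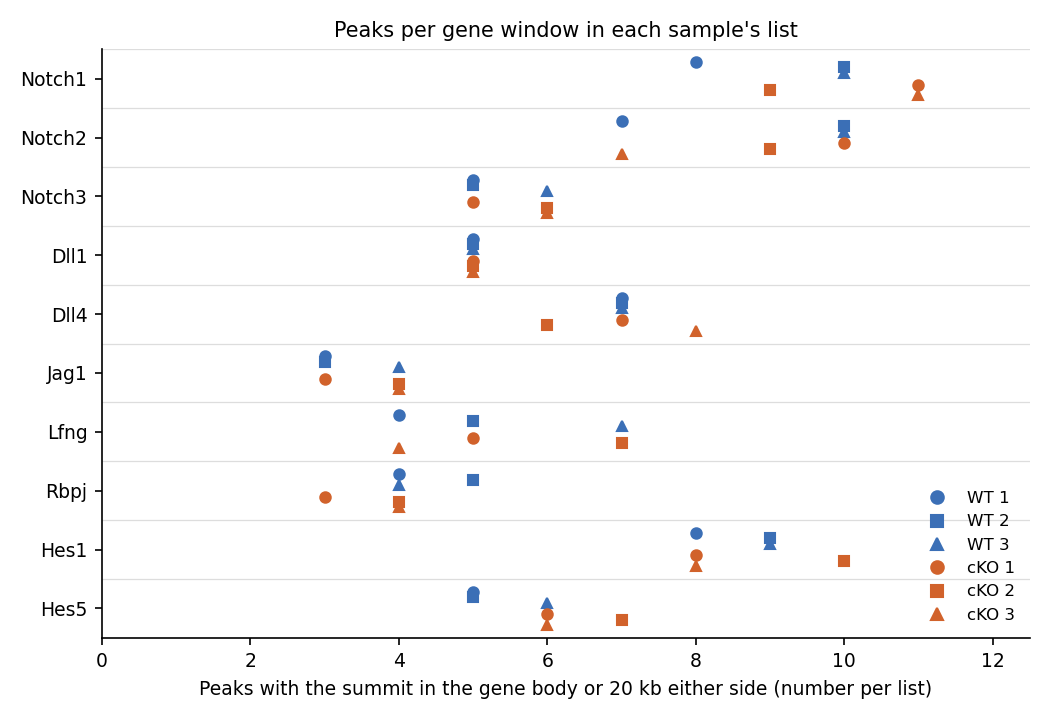
Number of peaks per list (horizontal) with the summit in the gene body or up to 20 kb either side of each of the 10 genes (vertical), 1 symbol per sample. WT and cKO overlap at every gene, and the 6 lists hold the same number, 5, at Dll1.

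Around the summits, from 100 bp before to 100 bp after, the peaks of these genes were searched on both strands for the RBPJ core, the N-box bound by HES proteins (CACNAG), HNF4 (CAAAGTCCA or CAAAGTTCA), AP-1 (TGACTCA or TGAGTCA) and ARID3 (ATCAAA or ATTAAA). The RBPJ core was at 4 of 14 shared promoter peaks in the windows (28.6%, beside 13.9% of all shared promoter peaks) and at 9 of 36 shared distal peaks (25.0%, beside 18.6%). The N-box was at 3 of 14 and 10 of 36 (21.4% and 27.8%, beside 29.8% and 36.4%). HNF4 was at 0 of 14 and 0 of 36, beside 0.792% and 3.98%, and AP-1 at 0 of 14 and 2 of 36, beside 3.01% and 11.7%. ARID3 was at 0 of 14 and 5 of 36 (13.9%), beside 5.49% and 17.6%. The distal windows had an A+T content of 43.4% ± 8.34 (SD, n = 36 peaks), beside 49.2% ± 8.34 over all shared distal peaks. At 14 and 36 peaks these shares rest on a few matches, and overlaps between motifs were counted for each motif.

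Distal summits with matches are printed on the plus strand with RBPJ and AP-1 matches in capitals (build GRCm38). They are the Jag1 and Notch3 intronic or neighbouring peaks that were lower by fold in every cKO list and hold the RBPJ core. Printed with them are the Rbpj peak that holds both motifs and the Notch3 peak upstream of the start, where both AP-1 matches were TGAGTCA. The remaining distal peaks lower by fold in every cKO list, at Hes1 and Notch2, held no RBPJ core. Both printed Notch3 windows also hold an ARID3 match, which is not in capitals.
Jag1 peak 1867 bp downstream, intron, chr2:137114677-137114877, plus strand: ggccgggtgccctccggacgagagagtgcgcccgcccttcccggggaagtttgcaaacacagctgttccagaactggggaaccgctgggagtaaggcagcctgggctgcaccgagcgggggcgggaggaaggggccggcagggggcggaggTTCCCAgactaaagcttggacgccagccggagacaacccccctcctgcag
Notch3 peak downstream of the gene, intron of Gm17276, chr17:32117870-32118070, plus strand: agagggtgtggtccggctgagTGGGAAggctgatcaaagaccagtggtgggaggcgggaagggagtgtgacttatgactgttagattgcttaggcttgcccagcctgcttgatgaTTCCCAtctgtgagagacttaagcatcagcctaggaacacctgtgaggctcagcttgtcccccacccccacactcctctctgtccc
Rbpj peak 2798 bp upstream, intergenic, chr5:53463254-53463454, plus strand: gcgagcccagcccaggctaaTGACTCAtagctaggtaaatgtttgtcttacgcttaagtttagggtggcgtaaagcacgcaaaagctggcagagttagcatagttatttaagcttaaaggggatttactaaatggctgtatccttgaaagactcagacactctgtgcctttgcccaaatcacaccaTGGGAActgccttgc
Notch3 peak 3158 bp upstream, intergenic, chr17:32169910-32170110, plus strand: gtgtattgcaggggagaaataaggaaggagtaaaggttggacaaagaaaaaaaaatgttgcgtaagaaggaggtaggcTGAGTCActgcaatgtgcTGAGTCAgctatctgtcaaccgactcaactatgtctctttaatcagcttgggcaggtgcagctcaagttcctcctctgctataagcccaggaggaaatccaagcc
The peak beyond the Notch3 gene stood at 47.1, 42.8 and 38.1 in WT and 24.8, 36.4 and 25.1 in cKO by fold. The upstream Rbpj peak stood at 70.7, 73.6 and 80.6 in WT and 92.1, 63.0 and 72.5 in cKO, with cKO 1 highest and cKO 2 lowest.

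Beyond the 10 genes, 46 other genes of the pathway were looked up, among them the remaining ligands and Hes and Hey genes, the Maml coactivators, the gamma-secretase subunits that cut the receptor, the Numb and Dtx regulators and Atoh1. A promoter peak was called in all 6 lists at 33 of them, in 1 to 5 lists at 8 and in 0 lists at 5, which were Dlk1, Hes3, Hes7, Dtx1 and Atoh1. Of the 40 with a shared peak 0 passed the rank test in either direction. Their mean percentile by fold was lower in cKO at 31 of 40, with a median difference of -2.29 points, beside the 60.2% and -1.17 points of all shared promoter peaks. By pileup it was lower at 17 of 40, with a median difference of 0.191 points. Every cKO value was below every WT value at 5 of 40 and above at 0, beside the 8.88% and 3.37% of all shared promoter peaks given above.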

How the data were processed

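The authors made ATAC-seq libraries from the crypts of 3 WT and 3 cKO samples and called peaks in each sample, without pooling, with MACS2 in an nf-core ATAC-seq pipeline on GRCm38. No input control was described. Each of the 6 deposited lists gives a score, a fold (the ratio of summit pileup to local background), a −log10 p and a −log10 q. The deposited score restates the −log10 q and was not used. The pileup was solved from the deposited fold and −log10 p, and came out whole within 0.05 for 100% of peaks. Total reads were not used here, so depth is known as pileup alone, and no interval was given.

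The 61 to 92 peaks per list outside chromosomes 1 to 19, X and Y were left out. No chromosome's last peak exceeded the reference length, and 0 of 15 pairs of lists were identical. Lists were merged where peaks overlapped by at least 1 base, and a merged peak took the highest percentile of its parts. A promoter peak had its summit from 1000 bp before to 100 bp after an annotated start of the gene in at least 1 list. Ranks were turned into normal scores and fitted for the 32748 peaks shared by all lists with limma 3.58.1 (R 4.3.3, trend in eBayes, Benjamini-Hochberg adjustment, threshold 0.05). The authors' count test could not be used on peak lists. Ranks and pileups were computed with scipy 1.17.1, pandas 2.3.3 and numpy 2.4.6 (Python 3.11.15), and plots drawn with matplotlib 3.10.9.

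Groups follow the labelled genotype. The genes, lists, motifs and tests were chosen with earlier results of these data known. The text names each gene's promoter peak, its distal peak of highest median percentile, and peaks whose groups did not overlap, plus those it says were chosen after their values were seen. Of the other pathway genes it names those with no promoter peak.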

Additional observations from a re-analysis of the deposited data

How the results depend on the processing

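No peak of the 10 genes passed the rank test under any of the 16 alternatives run: ranking by −log10 q, among shared peaks, with lists of 40492 peaks each, on chromosomes 1 to 19, with −log10 q of at least 5, without normal scores, by summit pileup, with a replicate block, with windows of the gene body alone or with 50 kb, and without each sample in turn. The lowest adjusted p was 0.302, without cKO replicate 2. Over all shared peaks 0 passed, except 2 by summit pileup, an intronic Trpm8 peak (higher in cKO) and a peak at Gm10722. That fit weights the common spread over each peak's own (prior degrees of freedom 827 against 7.56 by fold). The replicate numbers share no stated litter or day, same-numbered samples deviated with correlations of -0.272, -0.0186 and 0.125, and the replicate block gave 0 calls and 1411 peaks at an unadjusted p under 0.05 against 1894.

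The count of peaks lower in every cKO list, 9 of 50 (7.04% of all shared peaks), fell to 4 with lists of equal length (7.03%), 3 among shared peaks (6.08%), 2 by −log10 q (2.24%) and 1 by summit pileup (1.4%). The count higher in every cKO list, 0 (4.66%), became 1 (4.67%), 1 (5.86%), 3 (6.72%) and 2 (6.44%). The lower count ran from 9 to 20 when 1 sample was left out, with 16 lower (10.9%) and 4 higher (13.2%) without WT replicate 3, and 20 lower (20.9%) and 5 higher (17.3%) without cKO replicate 2. The promoters with a lower mean in cKO numbered 8 in each alternative except by summit pileup, where they were 2. By −log10 q their differences were small: over the 7 genes other than Notch2 they ran from -4.45 to -0.0189 points, with a median of -0.379. By pileup the promoter differences reversed to 1.84 points at Dll4, 0.528 at Jag1, 0.981 at Lfng, 0.653 at Notch1 and 0.0559 at Rbpj. The 0 peaks called in 1 genotype became 1 when 2 of 3 lists sufficed, 1 with 50 kb windows, and 0 to 1 with 1 sample left out (1 without cKO replicate 2). The 0 genes without overlap in number of peaks became 0 to 1, with 1 without WT replicate 3 and 1 without cKO replicate 2. For 2 of 3 lists or 1 sample left out, the shares over all merged peaks and all genes were not computed. These counts therefore have no comparison. With 3 samples a group and ranks in place of counts, changes at single peaks may have gone undetected. The smallest change that the test could detect is not given.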
